A study of Caenorhabditis elegans with 6 samples.

Results

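The p38 mitogen-activated protein kinase pathway of Caenorhabditis elegans was described here through 9 of the 46769 genes of the deposited gene table, picked by symbol: the p38 kinase genes pmk-1, pmk-2 and pmk-3, their neighbour islo-1, the upstream genes tir-1, nsy-1 and sek-1, the transcription factor gene atf-7 and the phosphatase gene vhp-1. All 9 passed the filter on low counts. The set was put together with the difference between mutant and wild-type animals already known, so the members' values are a description and no p-value is given for them. The libraries were 3 of the strain plp-1(ok2155), which carries a loss-of-function allele of plp-1, and 3 of the wild-type strain N2. Both strains were mixed populations of hermaphrodites, from embryos to adults, kept on OP50 bacteria at 20 °C until the plates were crowded but not starved. The mutant group rests on a single allele of plp-1, whose product, PLP-1, resembles the Pur-alpha proteins that bind DNA and RNA.

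In the nematode, the adaptor TIR-1 (the relative of mammalian SARM1) acts on the kinase NSY-1, which activates SEK-1, which in turn activates the p38 kinases. PMK-1 is known for innate immunity in the intestine, where it acts largely through the bZIP factor ATF-7, and VHP-1 is a phosphatase that turns p38 and JNK signalling down. PMK-2 is known from neurons, where it shares work with PMK-1, and PMK-3 acts with the kinases DLK-1 and MKK-4 in axon growth and repair. ISLO-1 is known as a partner of the potassium channel SLO-1.

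The sequencing depth lay between 41925388 and 46800016 counts per plp-1(ok2155) library and between 39331848 and 53486099 per wild-type library. The targeted gene checked the labels: plp-1 stood at 20.4 ± 2.7 CPM (counts per 1e6 counts, scaled between libraries) in plp-1(ok2155) and 367.5 ± 69.2 CPM in wild-type (SD, n = 3 each), a log2 fold change of -4.17 (SE 0.28, edgeR's quasi-likelihood test with Benjamini-Hochberg adjustment, adjusted p = 0.00242). Wild-type replicate 1 stood apart from the other libraries on the second principal component of log2 CPM, at 95.8 against -51.7 to 23.9. Of the 15090 genes tested, 40 were called higher in plp-1(ok2155) at an adjusted p under 0.05, which is 0.265%, and 12 lower, which is 0.0795%.

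The 4 genes islo-1, pmk-3, pmk-2 and pmk-1 follow each other on the plus strand of chromosome IV, in a span of 14.1 kb that starts 502.2 kb from plp-1. All 4 were higher in every plp-1(ok2155) library than in any wild-type library, by 2.54-fold to 4.76-fold on mean CPM. The other 5 genes of the pathway, on chromosomes II, III and X, overlapped between the groups. In the tables of assembly WBcel235 the coding span of islo-1 runs from 8136598 to 8138924, that of pmk-3 from 8140246 to 8142800, that of pmk-2 from 8143511 to 8148331 and that of pmk-1 from 8148806 to 8150741. With untranslated regions, as drawn in the Ensembl annotation of the same assembly, 126 bases separate islo-1 from pmk-3, 345 separate pmk-3 from pmk-2 and 145 separate pmk-2 from pmk-1. The kinases are known as an operon, a set of genes transcribed together and then split by trans-splicing. The annotation draws an exonic overlap of 56 bases between islo-1 and the same-strand gene F42G8.16, and none for the kinases.

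The gene islo-1 (gene ID 185675) had 21.0, 20.8 and 16.5 CPM in plp-1(ok2155) replicates 1, 2 and 3, against 5.02, 3.78 and 4.05 CPM in wild-type replicates 1, 2 and 3. The lowest mutant library lay above the highest wild-type library, and the means were 19.4 ± 2.56 and 4.28 ± 0.649 CPM (SD, n = 3 each). Its log2 fold change was 2.18 (SE 0.34).

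The next gene, pmk-3 (gene ID 177610), had 53.7, 54.4 and 40.8 CPM in plp-1(ok2155), against 12.5, 10.6 and 14.8 CPM in wild-type. Again the groups did not overlap. The means were 49.6 ± 7.61 CPM in plp-1(ok2155) and 12.6 ± 2.08 CPM in wild-type (SD, n = 3 each), and the log2 fold change was 1.97 (SE 0.28).

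For pmk-2 (gene ID 177611) the levels were 32.4, 30.2 and 22.7 CPM in plp-1(ok2155), against 5.76, 4.99 and 7.17 CPM in wild-type. This was the highest fold of the 9 genes. The means were 28.4 ± 5.08 CPM in plp-1(ok2155) and 5.97 ± 1.1 CPM in wild-type (SD, n = 3 each), and the log2 fold change was 2.25 (SE 0.33). It ranked 565 by log2 fold change among all tested genes, counted from the highest.

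The last gene of the run, pmk-1 (gene ID 191743), had 53.0, 56.5 and 47.8 CPM in plp-1(ok2155), against 21.5, 19 and 21.5 CPM in wild-type. It differed by less than its neighbours, with means of 52.4 ± 4.38 CPM in plp-1(ok2155) and 20.7 ± 1.45 CPM in wild-type (SD, n = 3 each) and a log2 fold change of 1.34 (SE 0.24). Of the 4 cluster genes it varied least among the libraries of a group: the highest library was 1.18 times the lowest in plp-1(ok2155) and 1.13 times the lowest in wild-type.

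**Figure D1:**
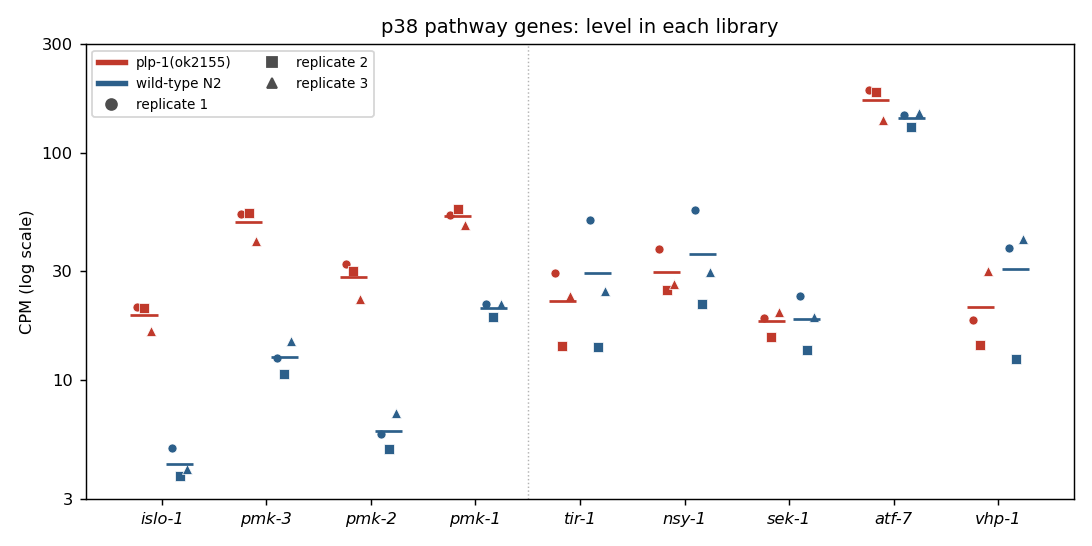
Level of each of the 9 genes in CPM (log axis), with 1 point per library and a bar at the group mean, plp-1(ok2155) in red left of wild-type N2 in blue (n = 3 each). The groups are apart for islo-1, pmk-3, pmk-2 and pmk-1 and overlap for tir-1, nsy-1, sek-1, atf-7 and vhp-1.

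Among all tested genes, 8.75% had every mutant library above every wild-type library, and 4 of the 9 members did. The fit across all genes called islo-1, pmk-3 and pmk-2 higher and not pmk-1, beside the 0.265% of all genes called higher. Since the members were chosen with this contrast in view, neither count is evidence about them. No member had every mutant library below every wild-type library, as 5.49% of all genes did. With the replicate number as a block pmk-1 was called higher too, beside 1.03% of all genes, and DESeq2 also called all 4 cluster genes, beside 3.09%. Upper-quartile scaling called pmk-3 and pmk-2, beside 0.186%, as did the fit with no filter on low counts, beside 0.161%. With plp-1(ok2155) replicate 1, 2 or 3 left out no member was called, beside 0.0322%, 0.0194% and 0.0255% of all genes called higher. The same held without wild-type replicate 1, 2 or 3, beside 0.116%, 0.0% and 0.00633%.

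Taken between libraries of the same replicate number, the log2 ratio of plp-1(ok2155) over wild-type was 2.07, 2.46 and 2.02 for islo-1, 2.11, 2.35 and 1.47 for pmk-3, 2.49, 2.60 and 1.66 for pmk-2, and 1.3, 1.57 and 1.15 for pmk-1. All 12 ratios were positive, and the ratio of pmk-1 was the smallest of the 4 genes within each replicate number.

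The genes that border the cluster did not pass the threshold. On the left, isp-1, which encodes the Rieske iron-sulphur subunit of respiratory complex III and lies on the minus strand 333 bases before islo-1, had 375.6, 293.2 and 364.2 CPM in plp-1(ok2155) and 249.1, 294.2 and 421.0 CPM in wild-type. Its log2 fold change was 0.10 with an SE of 0.28 (edgeR adjusted p = 0.941). On the right, faah-2, which is named as a fatty acid amide hydrolase and lies on the plus strand 1178 bases after pmk-1, had 56.6, 87.0 and 113.9 CPM in plp-1(ok2155) and 297.6, 46.0 and 173.9 CPM in wild-type. Its log2 fold change was -1.01 with an SE of 0.59 (edgeR adjusted p = 0.651). Both genes overlapped between the groups.

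Of the 12 protein-coding neighbours, 6 on either side, all were tested and 0 were called (edgeR, with and without the replicate block, smallest adjusted p 0.191 without it). Their log2 fold changes ran from -1.01 to 3.92, so the highest lay above every cluster gene. The 9 neighbours with a mean of at least 1 CPM, a minimum chosen after the values were seen, lay between -1.01 and 0.10. The other 3 had a mean under 1 CPM. B0218.5 had 20, 16 and 9 counts in plp-1(ok2155) and 3, 0 and 0 in wild-type, B0218.7 had 63, 126 and 40 against 10, 4 and 16, and F42G8.19 had 17, 19 and 29 against 32, 26 and 3. The gene B0218.7 fell under the minimum through its wild-type libraries, with group means of 1.62 CPM in plp-1(ok2155) and 0.24 CPM in wild-type. B0218.5 and B0218.7, both of unnamed function in the table, were above every wild-type library in each mutant library, without passing the threshold. These were 2 of the 12 neighbours, beside 8.75% of all tested genes. In sph-1 every mutant library was below every wild-type library, as in 5.49% of all tested genes. It had 13.7, 18.9 and 21.5 CPM in plp-1(ok2155) and 25.6, 22.3 and 34.5 CPM in wild-type. Its log2 fold change was -0.61 (edgeR adjusted p = 0.606). B0218.7 had a log2 fold change of 2.79 with an SE of 0.76 (edgeR adjusted p = 0.205). B0218.5 had a fitted log2 fold change of 3.92 with an SE of 1.04 (edgeR adjusted p = 0.191), which rests on 3 wild-type counts in all. Its summed counts per library total were 15.8 times as high in plp-1(ok2155) as in wild-type, with a 95% exact binomial interval from 5.08 to 79.7 that covers counting error only.

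**Figure D2:**
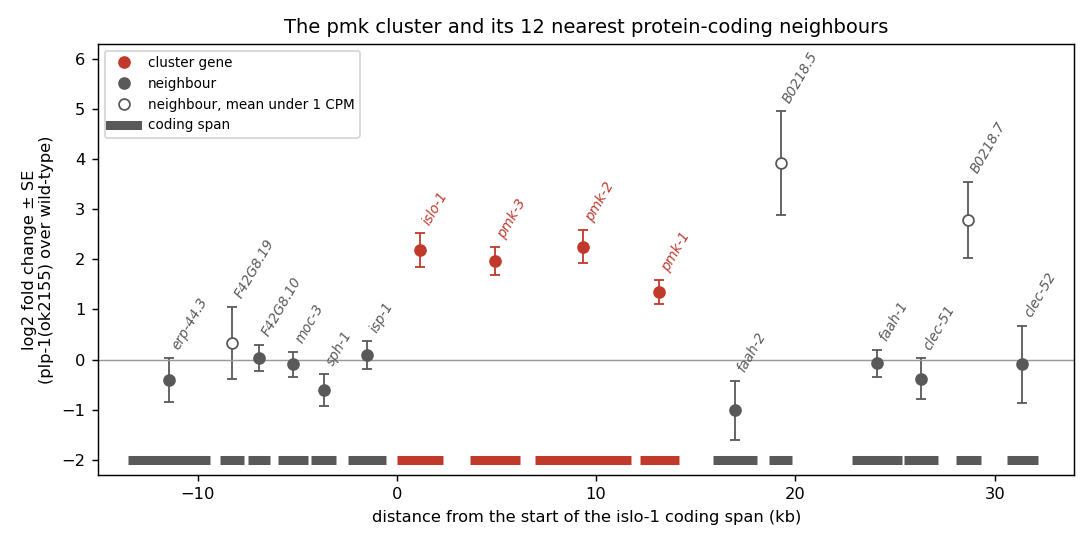
Log2 fold change of plp-1(ok2155) over wild-type with its SE for the 4 cluster genes (red) and the 12 nearest protein-coding genes (grey, open where the mean was under 1 CPM), against the distance in kb from the start of the islo-1 coding span; thick lines at the bottom are coding spans. The 4 cluster genes lie between 1.34 and 2.25, the filled neighbours between -1.01 and 0.10, and the open points of B0218.5 and B0218.7 at 3.92 and 2.79, above all 4 cluster genes.

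Levels per length, in the deposited FPKM (fragments scaled to transcript length and library size), allow the genes to be set against each other. The 4 cluster genes together had 126.6, 147.4 and 106.0 FPKM in plp-1(ok2155), against 46.7, 31 and 33.9 FPKM in wild-type. Within that sum pmk-1 took 34.2%, 34.9% and 37.9% in plp-1(ok2155), against 46.8%, 48.9% and 45.6% in wild-type, so its share was lower in every mutant library while its level was higher. The FPKM ratio of pmk-1 to pmk-2 was 1.43, 1.41 and 1.68 in plp-1(ok2155), against 2.33, 2.58 and 2.22 in wild-type. The ratio of pmk-3 to pmk-2 overlapped between the groups, at 1.15, 1.08 and 1.14 in plp-1(ok2155) and 1.07, 1.15 and 1.21 in wild-type. In gene counts, which do not rest on how reads were split between transcript models, the ratio of pmk-3 to pmk-2 did not overlap, at 1.65, 1.8 and 1.8 in plp-1(ok2155) and 2.16, 2.13 and 2.06 in wild-type. The proportion of pmk-3 to pmk-2 therefore depends on the scale, while that of pmk-1 to pmk-2 was lower in every mutant library on both, with count ratios of 1.64, 1.87 and 2.1 in plp-1(ok2155) and 3.73, 3.81 and 3 in wild-type.

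The table lists 4 transcript models of pmk-2. A long pair with coding lengths of 1209 and 1194 bases spans the whole gene, and a short pair of 600 and 585 bases starts at 8147221 and covers its downstream end. Summed FPKM of the long pair was 19.7, 15.5 and 12.2 in plp-1(ok2155), against 1.69, 1.62 and 2.67 in wild-type. The short pair had 10.6, 21.0 and 11.7 FPKM in plp-1(ok2155), against 7.71, 4.27 and 4.30 in wild-type. Both pairs were higher in every mutant library, and the long pair took 52.8% ± 11.4 of the gene's FPKM in plp-1(ok2155) and 27.9% ± 10.2 in wild-type (SD, n = 3 each), with the lowest mutant share at 42.4% and the highest wild-type share at 38.3%. These are estimates that divide reads between overlapping models, and within the short pair the division was uneven, with the model of 585 bases at 0.837% of the gene's counts in wild-type replicate 3 and 30.1% and 35.6% in replicates 1 and 2. The transcript model of pmk-3 with 1425 bases held at least 99.6% of that gene's counts in each library, and islo-1 and pmk-1 have 1 model each.

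**Figure D3:**
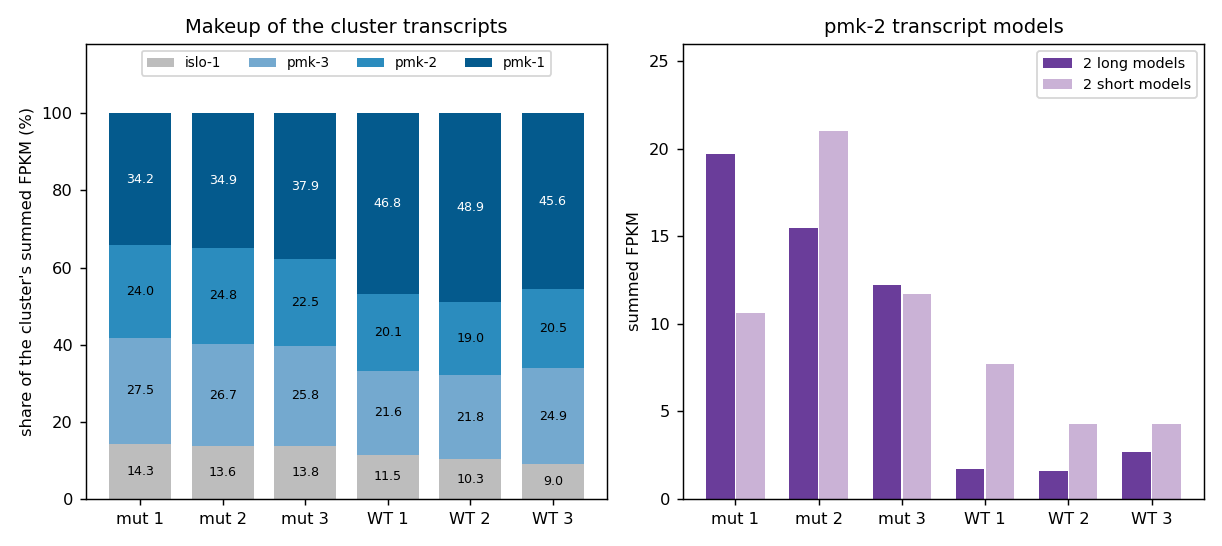
Left, share of the cluster's summed FPKM taken by each gene in each library (mut, plp-1(ok2155); WT, wild-type N2; numbers are replicates). Right, summed FPKM of the 2 long and the 2 short pmk-2 models in the same libraries: the long pair lies between 12.2 and 19.7 in plp-1(ok2155) and between 1.62 and 2.67 in wild-type.

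Upstream of the kinases, tir-1 (gene ID 175502, chromosome III from 3870183 to 3891010, minus strand) had 29.5, 14.1 and 23.3 CPM in plp-1(ok2155), against 50.4, 13.9 and 24.6 CPM in wild-type. The highest wild-type value came from replicate 1, and apart from it the groups covered about the same range. The log2 fold change was -0.41 (SE 0.50), and 0.20 without wild-type replicate 1.

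The kinase kinase kinase gene nsy-1 (gene ID 24104671, chromosome II from 5022805 to 5029592, plus strand) had 37.8, 24.8 and 26.5 CPM in plp-1(ok2155), against 55.9, 21.5 and 29.7 CPM in wild-type. It had the same order of libraries as tir-1 among the wild-type animals, with a log2 fold change of -0.27 (SE 0.39) that was 0.21 without wild-type replicate 1. The annotation draws 56 exonic bases that nsy-1 shares with wdr-83 on the opposite strand. No source used here says if reads were counted by strand.

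The kinase kinase gene sek-1 (gene ID 181043, chromosome X from 7816804 to 7820063, plus strand), which shares 70 exonic bases with R03G5.6 on the opposite strand, had 18.8, 15.4 and 20.0 CPM in plp-1(ok2155), against 23.3, 13.5 and 18.9 CPM in wild-type. Its group means were almost equal, at 18.1 ± 2.38 CPM in plp-1(ok2155) and 18.6 ± 4.88 CPM in wild-type (SD, n = 3 each). The log2 fold change of -0.04 (SE 0.32) was 0.15 without wild-type replicate 1 and 0.06 without plp-1(ok2155) replicate 2.

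Downstream, atf-7 (gene ID 175587, chromosome III from 4492306 to 4499038, minus strand) had 187.6, 183.7 and 138.8 CPM in plp-1(ok2155), against 146.3, 129.2 and 149.6 CPM in wild-type. Mutant replicates 1 and 2 were above all wild-type libraries and replicate 3 was not, and the log2 fold change was 0.26 (SE 0.23). Its main transcript model held 53.2% ± 1.58 of its counts in plp-1(ok2155) and 53.3% ± 3.17 in wild-type (SD, n = 3 each).

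The phosphatase gene vhp-1 (gene ID 173904, chromosome II from 5323276 to 5340247, plus strand) had 18.3, 14.3 and 30 CPM in plp-1(ok2155), against 37.9, 12.4 and 41.8 CPM in wild-type. It varied within both groups, by 2.1 times in plp-1(ok2155) and 3.36 times in wild-type between the lowest and the highest library. The log2 fold change was -0.56 (SE 0.49), and it lay between -1.01 without plp-1(ok2155) replicate 3 and -0.33 without wild-type replicate 3.

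The median log2 fold change was 2.08 in the 4 cluster genes and -0.27 in the 5 genes outside it, beside -0.03 over all tested genes. Within wild-type, the highest library was 3.63 times the lowest for tir-1, 2.6 times for nsy-1, 1.72 times for sek-1 and 1.16 times for atf-7, and between 1.13 and 1.44 times for the cluster genes. The cluster genes therefore varied little where tir-1, nsy-1 and vhp-1 varied most.

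**Figure D4:**
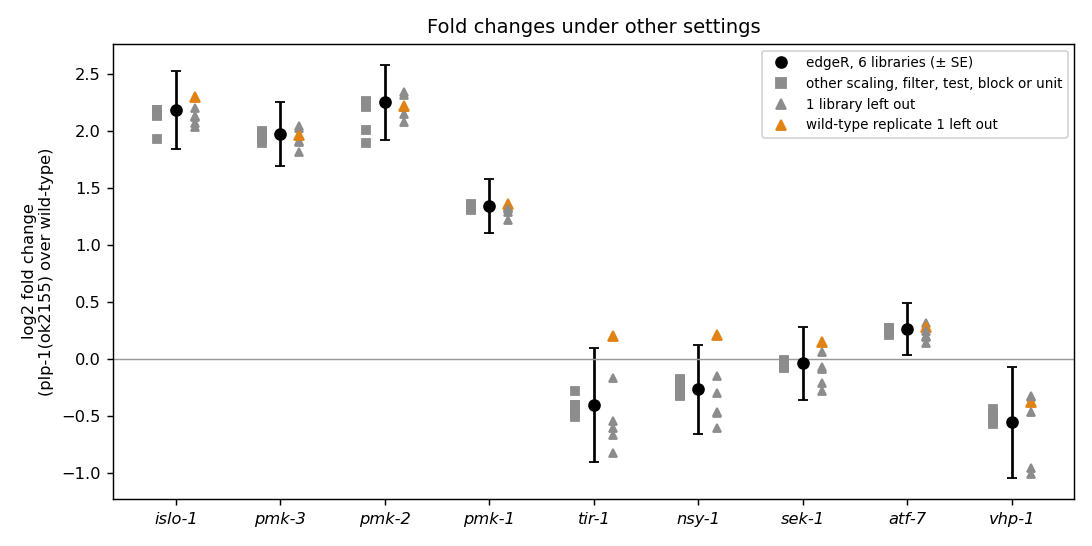
Log2 fold change of each gene in the edgeR fit with all 6 libraries (black, with SE), under another scaling, filter, test, block or unit (squares) and with 1 library left out (triangles, orange for wild-type replicate 1). The 4 cluster genes lie between 1.22 and 2.34 throughout, while tir-1, nsy-1 and sek-1 lie on both sides of 0.

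By mean FPKM, the order in plp-1(ok2155) was atf-7 (116.4 ± 21.3), pmk-1 (45 ± 5.84), pmk-3 (33.9 ± 6.11), pmk-2 (30.2 ± 6.32), islo-1 (17.6 ± 2.75), sek-1 (17.3 ± 1.55), vhp-1 (13.7 ± 5.41), tir-1 (13 ± 5.58) and nsy-1 (9.84 ± 1.5; SD, n = 3). In wild-type it was atf-7 (96.6 ± 20.8), vhp-1 (19.5 ± 10.9), tir-1 (18.6 ± 17.4), sek-1 (17.9 ± 7.61), pmk-1 (17.5 ± 3.79), nsy-1 (11.4 ± 8.21), pmk-3 (8.42 ± 1.66), pmk-2 (7.42 ± 1.8) and islo-1 (3.88 ± 1.3; SD, n = 3). The cluster genes thus took places 2 to 5 in the mutant order and, with all models summed, places 5 and 7 to 9 in the wild-type order. The place of pmk-1 in wild-type leaned on replicate 1, where tir-1 had 38.6 and sek-1 26.6 FPKM, above pmk-1 at 21.9. In wild-type replicates 2 and 3 pmk-1, at 15.2 and 15.4 FPKM, was above tir-1 (7.53 and 9.54) and sek-1 (12.1 and 15.2). There only atf-7 was above pmk-1 in replicate 2, and only atf-7 and vhp-1 in replicate 3. In plp-1(ok2155) the libraries of atf-7 and pmk-1, of pmk-1 and pmk-3, and of pmk-2 and islo-1 did not overlap, and those of every other pair of neighbours in the order did. In wild-type the neighbours that did not overlap were atf-7 and vhp-1, and pmk-2 and islo-1. In every library of both groups atf-7 was above the other 8 genes. The FPKM of nsy-1 includes a model of 33 bases that holds 0.86 to 6.36 FPKM in a library on 2 to 12 counts. Without that model, left out after the values were seen, nsy-1 averaged 6.36 ± 1.24 FPKM in plp-1(ok2155) and 8.0 ± 5.48 FPKM in wild-type (SD, n = 3 each). It was still last in the mutant order, and in the wild-type order it stood behind pmk-3, so that the cluster genes took places 5, 6, 8 and 9.

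Genes whose log2 CPM, centred over the 6 libraries, differed least from a cluster gene were sought among all tested genes. For pmk-2 and pmk-3 the nearest was the other, with a root-mean-square difference of 0.143 on the log2 scale, and islo-1 came at rank 5 for both, at 0.192. Next to them stood C48D1.9 on chromosome IV, at 0.152 from pmk-2 and 0.171 from pmk-3, and ccb-1 on chromosome I, a calcium channel beta subunit, at 0.153 and 0.176. For islo-1 the nearest were F36D3.1 (0.147), T05A12.4 (0.157) and ccb-1 (0.178). For pmk-1 they were rdl-1 (0.0862), hsd-2 (0.102) and K09H9.7 (0.117), while pmk-3 came only at rank 117, at 0.337. The measure rests on 6 libraries of 2 groups, and it was not tested. Because the centring was over both groups, it includes the group difference that was known when the members were chosen. The genes nearest to pmk-1, in the order above, had log2 fold changes of 1.3, 1.56 and 1.22, beside 1.34 for pmk-1. Of the genes named, hsd-2 and C48D1.9 were low, at log2 CPM from -2.17 to -0.65 and from -1.76 to 1.09. Log2 CPM was taken with a prior count of 2, which shrinks the differences of such genes.

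Other genes of the pathway were taken whole from lists by known role. Of 21 further upstream and partner genes, 20 were tested and 0 were called in edgeR or DESeq2, with a median log2 fold change of -0.06, a range from -0.78 to 0.59, and 0 at an unadjusted p under 0.05 in edgeR. The smallest p-values were those of dkf-2, a protein kinase D upstream of PMK-1, at a log2 fold change of 0.59 (edgeR adjusted p = 0.613), of the G protein-coupled receptor gene fshr-1 at -0.78 (adjusted p = 0.624) and of skn-1, a transcription factor that PMK-1 phosphorylates under oxidative stress, at 0.47 (adjusted p = 0.644). The partner list thus lay near the all-gene median of -0.03. The adaptor gene trf-1 was not tested for lack of counts.

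Of the 8 genes around PMK-3 in its DLK-1 arm, 0 were called in edgeR or DESeq2 and 0 had an unadjusted p under 0.05 in edgeR. Their median log2 fold change was -0.31, and 2 of the 8 were positive, beside 47.5% of all tested genes. Every mutant library was below every wild-type library for 2 of the 8, beside 5.49% of all tested genes. The kinase gene mak-2, which acts after PMK-3, stood at -0.79 (edgeR adjusted p = 0.595), the ubiquitin-conjugating enzyme variant uev-3, a partner of PMK-3, at -0.47 (adjusted p = 0.606) and the bZIP factor cebp-1 at -0.74 (adjusted p = 0.731). All 8 lay between -0.79 and 0.20 on the log2 scale, below pmk-3.

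Genes of the ERK, JNK and TAK1/NLK pathways, related kinase cascades, gave 0 calls among 22 tested in edgeR and DESeq2, 0 at an unadjusted p under 0.05 in edgeR, and a median log2 fold change of -0.01. The JNK-like kinase genes kgb-2 and kgb-1 stood at -1.47 (edgeR adjusted p = 0.606) and -0.54 (adjusted p = 0.730), and the p21-activated kinase gene max-2 at 0.45 (adjusted p = 0.741).

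A list of immune effector genes, most of them known to depend on PMK-1, gave 0 calls among 19 tested in edgeR and 0 among the 18 for which DESeq2 gave an adjusted p, which left out cnc-2, with an unadjusted p under 0.05 in edgeR for cnc-2 (higher) and C17H12.8 (lower). Their median log2 fold change was 0.15, in a range from -2.11 to 3.29. The antimicrobial peptide gene cnc-2, known in the epidermis for control by the DBL-1 (TGF-beta) pathway rather than by p38, had 3.80, 3.12 and 33.3 CPM in plp-1(ok2155), against 0.898, 1.75 and 1.47 CPM in wild-type, a log2 fold change of 3.29 (edgeR adjusted p = 0.245), and most of that came from mutant replicate 3. C17H12.8 stood at -1.89 (adjusted p = 0.381) and the sodium pump gene catp-3 at 1.01 (adjusted p = 0.576).

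The immune reporter gene T24B8.5, named here after its values were seen, had 120.0, 115.7 and 355.5 CPM in plp-1(ok2155), against 4.61, 362.5 and 164.4 CPM in wild-type. The spread among the wild-type libraries was wider than the difference between the groups (log2 fold change 0.15, SE 1.10). Summed over the 19 effectors, the level lay between 1474 and 2834 CPM in plp-1(ok2155) and between 786.7 and 2250 CPM in wild-type, with wild-type replicate 1 as the lowest, the library in which tir-1, nsy-1 and sek-1 were highest. The 12 tested targets of SKN-1 in oxidative stress gave 0 calls in edgeR and DESeq2, 0 at an unadjusted p under 0.05 in edgeR, and a median of -0.12, with the glutathione transferase genes gst-7 and gst-4 at -0.51 and -0.82 (edgeR adjusted p = 0.595 and 0.692) and gst-30 at 0.83 (adjusted p = 0.709).

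**Figure D5:**
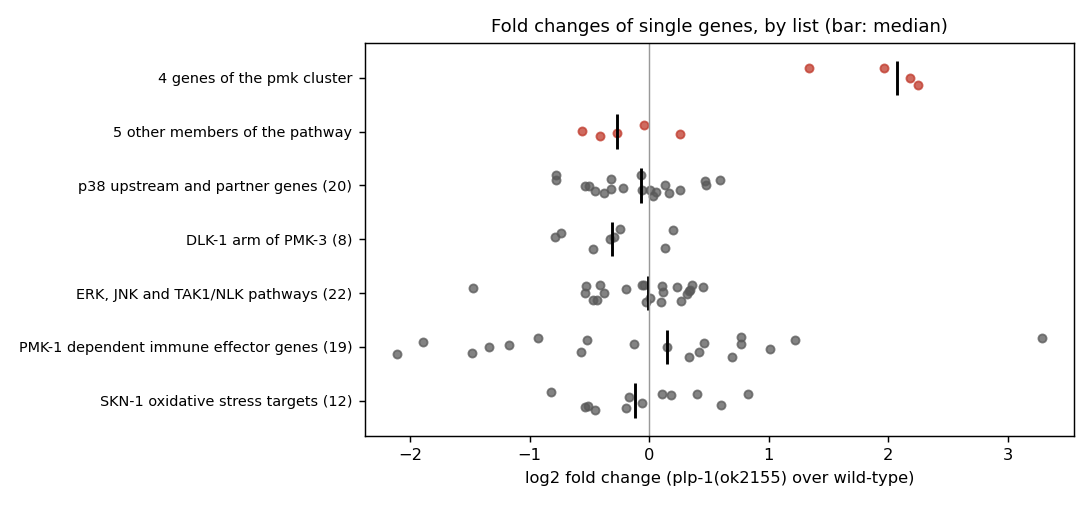
Log2 fold change of plp-1(ok2155) over wild-type for each tested gene of the pathway lists, with the number tested in brackets and a bar at the median; the 9 chosen genes are in red. Medians of the 5 lists lie between -0.31 and 0.15, and that of the 4 cluster genes at 2.08.

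The libraries are whole animals of mixed stage, so more cells of a type and more RNA per cell cannot be told apart. Summed levels of 12 sperm markers lay between 19.9 and 58.3 CPM in plp-1(ok2155) and between 3.97 and 11.8 CPM in wild-type, with 12 of 12 log2 fold changes positive, beside 47.5% of all tested genes. All 12 had counts in every library, but several were near the floor in wild-type, such as spe-11 with 22, 3 and 4 counts. By edgeR 0 sperm markers were called, 10 had an unadjusted p under 0.05 and were higher, beside 6.36% of all genes, DESeq2 called 8, beside 3.09%, and the replicate block 2, beside 1.03%. Every mutant library was above every wild-type library for 9 of the 12 sperm markers, beside 8.75% of all tested genes. Summed levels of 12 oocyte and germline markers lay between 3771 and 7255 CPM in plp-1(ok2155) and between 3431 and 4550 CPM in wild-type. Their log2 fold changes were positive in 12 of 12, beside 47.5% of all tested genes. In edgeR 0 were called and 2 were higher at an unadjusted p under 0.05, beside 6.36%, and DESeq2 called 0. Every mutant library was above every wild-type library for 3 of these 12, beside 8.75%. Of 12 epidermis and cuticle markers 1 was called higher in edgeR, beside 0.265% of all tested genes. It was the cuticle collagen gene sqt-1, at 3.89 on the log2 scale with an SE of 0.56 (edgeR adjusted p = 0.0382). DESeq2 and the replicate block each called 5 of them higher, beside 3.09% and 1.03% of all genes. These were the collagen genes rol-6, sqt-1, bli-1, dpy-13 and lon-3. DESeq2 gave an adjusted p for 11 of the 12, which left out wrt-2. The same 5 had an unadjusted p under 0.05 in edgeR, beside 6.36% of all genes, and log2 fold changes from 3.32 to 4.57. Each was higher in every mutant library than in any wild-type library, as were 8.75% of all tested genes. These 5 summed to 16.2, 23.1 and 61.1 CPM in plp-1(ok2155), against 1.02, 1.61 and 3.12 CPM in wild-type. The sum of all 12 is mostly col-19 and overlapped, at 728.7 to 979.5 CPM in plp-1(ok2155) and 613.7 to 1250 CPM in wild-type. Without col-19 the other 11 overlapped too, at 160.1, 124.8 and 152.4 CPM in plp-1(ok2155) and 288.5, 88.7 and 90.4 CPM in wild-type. Of the 12, 7 had a positive log2 fold change, beside 47.5% of all tested genes. Their median was 0.12, and the lowest, wrt-2, stood at -2.31. The collagen genes sqt-3 and dpy-7 also went the other way, at -1.42 and -1.29 (edgeR adjusted p = 0.686 and 0.692). Both overlapped between the groups, with wild-type replicate 1 as the highest library. The part of sperm, germline and cuticle content in the levels of the pmk cluster was not tested.

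Markers of the intestine and of neurons, where the pathway is best known, overlapped in summed level. The 12 intestine markers, all detected in every library, had a median of -0.46 on the log2 scale. Their sums lay between 3569 and 6086 CPM in plp-1(ok2155) and between 3560 and 10612 CPM in wild-type, with 0 called (1 lower at an unadjusted p under 0.05, beside 3.2% of all genes, 0 by DESeq2). The 12 neuron markers, also detected in every library, had a median of -0.23 on the log2 scale and sums between 177.5 and 208.7 CPM in plp-1(ok2155) and between 179.1 and 237.3 CPM in wild-type, with 0 called (0 at an unadjusted p under 0.05, 0 by DESeq2). The 6 yolk protein genes, made by adults, summed to 44681 to 94477 CPM in plp-1(ok2155) and 37125 to 159710 CPM in wild-type. Their median was -0.58 on the log2 scale, with 0 called (0 at an unadjusted p under 0.05, 0 by DESeq2). Of these 6, 0 had a positive log2 fold change, beside 47.5% of all tested genes. Positive log2 fold changes were found for 2 of 12 intestine markers and 5 of 12 neuron markers, beside 47.5% of all tested genes. Every mutant library was below every wild-type library for 3 of the neuron markers and 0 of the intestine markers, beside 5.49%. The part of these tissues in the result was not tested.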

How the data were processed

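RNA of 3 plp-1(ok2155) and 3 wild-type samples was sequenced from stranded mRNA libraries, per the labels' protocols. The submitters' processing notes list StringTie 1.3.4d, HISAT2 2.1.0, Trimmomatic 0.38, Bowtie2 2.3.4.1, DESeq2 and FastQC 0.11.7 with no role or order. The authors deposited estimated counts, already whole numbers, and FPKM for 46769 genes and 56158 transcripts of WBcel235. Gene counts equal the sum of transcript counts in 100.0% of genes, and low transcript counts had been rounded up. All mRNA lengths are multiples of 3, so levels per length refer to coding length. The 24 entries without a symbol, at most 0.0246% of a library's counts, were left out. All columns of per-sample values were used.

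Genes were filtered with filterByExpr, which left 15090, scaled by TMM and tested with edgeR 4.0.16 (quasi-likelihood test, group as the only term, R 4.3.3; Benjamini-Hochberg adjustment, called under 0.05). Each SE is the absolute log2 fold change over the root of its F value. The code was tested on simulated data. DESeq2 1.42.0, other scalings, no filter, FPKM ratios (pseudocounts 1 and 0.1), the replicate block and leaving out each library were alternatives. Replicate numbers were taken to pair the libraries only in the replicate block and the same-number ratios, and the main fit did not use them. The reason for this pairing was that same-numbered libraries deviated together, though weakly (correlations 0.28, 0.21 and 0.36, against -0.34 to -0.04 for unlike numbers). Deviations were taken from the mean of each group of 3, so a library cannot correlate positively with all 3 of the other group. The correlations also come from the values that the block fit used, so the pairing remains an assumption. The series' design text calls the libraries biological replicates.

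Named genes were all 9 members and their transcripts, plp-1, the 6 nearest protein-coding genes on each side of the cluster, the 3 smallest p-values and any called gene per list, and the 3 genes nearest in pattern to each cluster gene. Of the marker lists sqt-1, rol-6 and lon-3 are named by this rule. The markers col-19, bli-1, dpy-13, sqt-3, dpy-7, wrt-2 and spe-11 are named after their values were seen. The members and lists were chosen with earlier results of these data known. Of the listed genes 1, F35E12.8, was not matched. The minimum of 1 CPM for neighbours was chosen after the values were seen.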

Additional observations from a re-analysis of the deposited data

How the results depend on the processing

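The log2 fold changes of islo-1, pmk-3, pmk-2 and pmk-1 stayed positive under all 13 alternatives, between 1.93 and 2.3, 1.81 and 2.04, 1.89 and 2.34, and 1.22 and 1.36. Those of atf-7 and vhp-1 also kept their direction, while tir-1 and nsy-1 turned positive in 1 and sek-1 in 2 of the 13, each time with a library left out. Over all genes, DESeq2 called 463 higher and 100 lower, and the replicate block, where the numbers pair the libraries, called 155 higher and 64 lower, against 40 and 12; leaving out a library gave 0 to 18 higher and 1 to 5 lower. DESeq2 and the block called all 4 cluster genes, the fits with 1 library left out called none of them, and upper-quartile scaling and the unfiltered fit called pmk-3 and pmk-2 but not islo-1. The fits with 1 library left out have fewer libraries, and the smaller group is assumed to vary like the other. The block changed no call in the pathway lists; in the marker lists it called 5 epidermis and 2 sperm markers. With 3 libraries per group, small differences in the 5 genes outside the cluster were not detectable, and a p above the threshold does not show equal levels. Without its shortest transcript model, an alternative chosen after seeing the data, nsy-1 averaged 6.36 FPKM in plp-1(ok2155) and 8.0 in wild-type, against 9.84 and 11.4 with all models.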
